A study of Mus musculus with 10 samples.

Results

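The 10 genes described here encode cytokines and related signalling ligands that lie outside the chromosome 11 cluster of TH2 cytokine genes: Il6, Il10, Il22, Il23a, Il24, Il9, Tnf, Lta, Ltb and Areg. They were chosen by symbol, and each matched 1 of the 49671 gene IDs of the count table. The list was drawn up with the diet difference of these libraries already known, so the levels by diet are given as a description, without a test. Tests on the 10 genes concern the 2 batches, which did not serve the choice. Lists of other genes of the same pathways were tested between the diets, and since they too were drawn up with earlier results of these libraries known, those p-values are not independent of the choice.

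Gene expression was measured by RNA sequencing of total RNA in mouse TH2 cultures, grown from naive CD4+ T cells and harvested on day 5 of polarization. The vitamin D-deficient group has 7 libraries, 5 in batch 1 and 2 in batch 2, from C57BL/6 mice bred and reared without ultraviolet light on a diet that lacked vitamin D metabolites. The control group has 3 libraries, 2 in batch 1 and 1 in batch 2, from C57BL/6 mice kept in the same way on standard feed that supplied 400 IU vitamin D3 in each kg. Mice of both groups carried the label WT, were second-generation offspring and received no further treatment. Nothing in the labels says that libraries came from separate mice, so part of the spread between them may be technical. The level of Xist, a gene expressed in female cells, marked deficient libraries 1 and 3 as female. It marked the other deficient libraries and all controls as male. The deficient libraries thus do not all come from the same mouse. Each library is a bulk culture, in which fewer cells of a type and less RNA per cell cannot be told apart.

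Cytokines of this group act through a few receptor families. IL-6 and IL-23 signal through JAK kinases to STAT3 and are known for driving TH17 responses; IL-10, IL-22 and IL-24 belong to the IL-10 family, in which IL-10 restrains inflammation while IL-22 and IL-24 act mainly on epithelia. TNF and the lymphotoxins bind TNF receptors and the lymphotoxin beta receptor, which activate NF-kB. IL-9 and amphiregulin, the product of Areg, are type 2 effectors that act on mast cells and on epithelial repair. TH2 cells are known to make IL-10, IL-24 and some IL-9 themselves, while IL-6 and the IL-23 subunit are better known as products of myeloid cells.

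The libraries held between 5800698 and 13433276 counts, with the controls at the shallow end. All 9 genes taken as checks of TH2 and T cell identity (Cd3e, Cd3g, Cd4, Gata3, Il4, Il5, Il13, Trac and Il4ra) averaged at least 1 CPM (the count scaled to the library total) in both groups. Their sum was 1304 to 1408 CPM in deficient and 1809 to 1888 CPM in control libraries, but they did not share a direction. Cd4 (298 to 396 CPM in deficient and 707 to 734 CPM in control libraries), Trac, Cd3e and Gata3 were lower in deficient libraries without overlap. Il13 was higher without overlap (168 to 255 CPM in deficient and 61.4 to 92.1 CPM in control libraries). Cd3g, Il4, Il5 and Il4ra overlapped. Neutrophil markers were below 1 CPM in every library (6 of 6), and so were 5 of 8 macrophage and monocyte markers, among them Lyz2, Csf1r and Cd14. B cell markers summed to 55.3 to 83.8 CPM in deficient libraries 1 to 4 and 292 to 329 CPM in deficient libraries 5 to 7, against 12.8 to 103 CPM in control libraries. The CD8 T cell pair Cd8a and Cd8b1 summed to 28.3 to 49.3 CPM in deficient libraries 1 to 4 and 119 to 155 CPM in 5 to 7, against 7.59 to 16.4 CPM in control libraries. Deficient libraries 5 to 7 thus stand apart from deficient libraries 1 to 4, although library 5 carries the label of batch 1.

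On a scale of CPM per kilobase of exon, which allows genes to be compared, Il24 and Tnf had the highest mean levels of the 10 in both diets. In deficient cells the order was Il24 (104 ± 62.6), Tnf (53.7 ± 11.3), Lta (33.1 ± 5.45), Il23a (14.3 ± 6.82), Il6 (12.3 ± 1.9), Il10 (10.8 ± 4.32), Ltb (10.8 ± 1.28) and Areg (4.87 ± 0.713; SD, n = 7). The top rank is not secure, since Tnf was above Il24 in deficient libraries 1 (58.6 for Tnf and 51.8 for Il24) and 3 (70.7 for Tnf and 40.9 for Il24). The steps from Il24 to Tnf, from Il23a to Il6, from Il6 to Il10 and from Il10 to Ltb were smaller than the SD of the gene before the step. In control cells it was Il24 (46.1 ± 3.35), Tnf (27.3 ± 4.31), Il10 (9.81 ± 1.44), Lta (9.5 ± 0.863), Ltb (8.79 ± 0.636), Areg (3.75 ± 0.653) and Il6 (1.07 ± 0.55), with Il23a at 0.0485 ± 0.0422 (SD, n = 3). The steps from Il10 to Lta and from Lta to Ltb were again smaller than the SD of the gene before the step. Il9 and Il22 were near 0 in both, at 0.447 ± 0.456 and 0.278 ± 0.251 CPM per kilobase in deficient cells and 0.0997 ± 0.173 and 0.196 ± 0.22 CPM per kilobase in control cells.

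**Figure D1:**
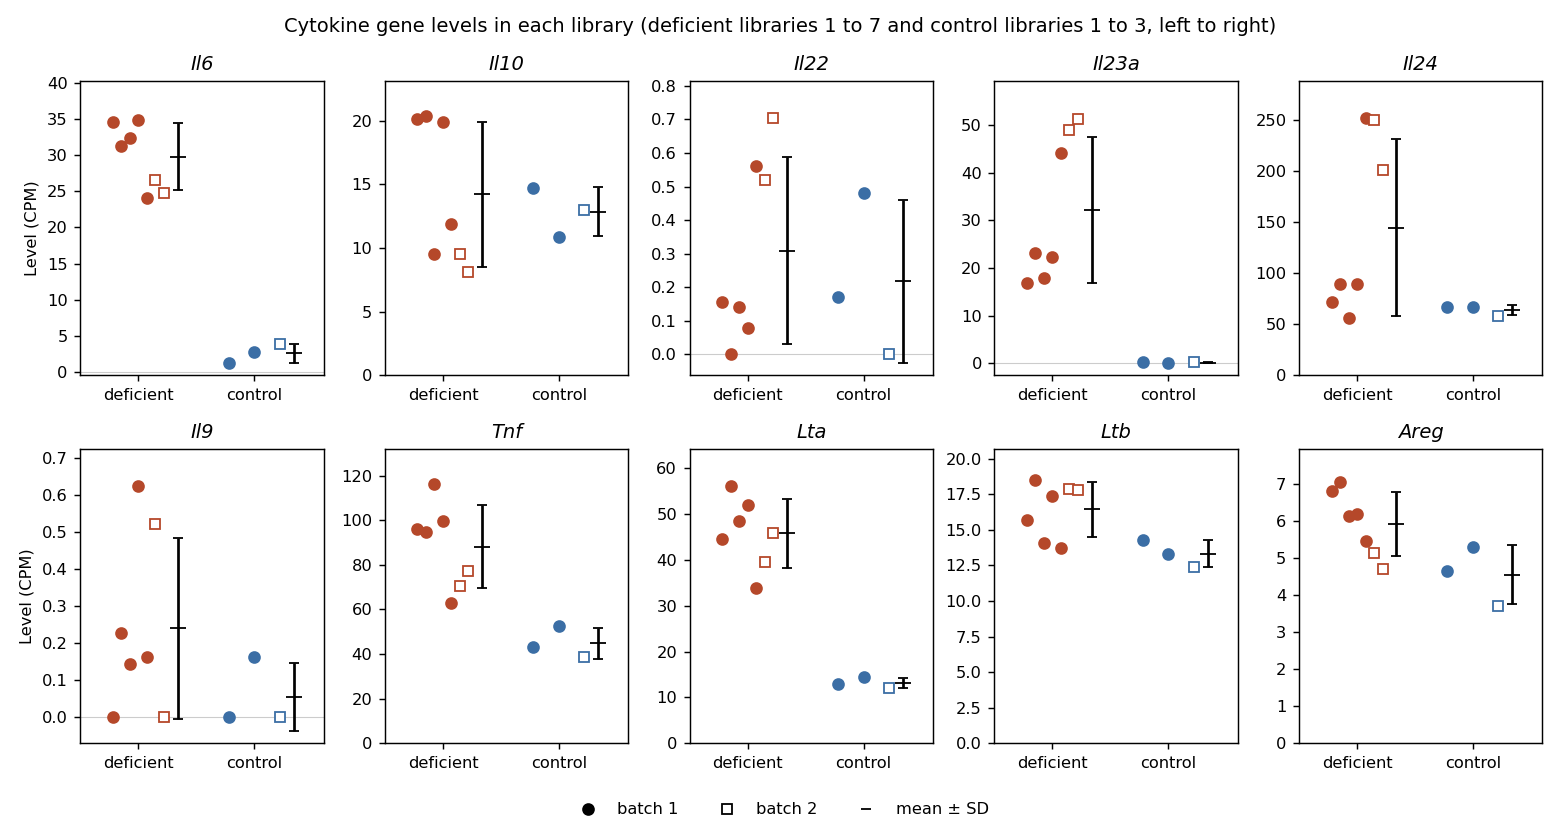
Level of each of the 10 genes in CPM (vertical axis, linear) in each deficient library (left, n = 7) and control library (right, n = 3); circles are batch 1, open squares batch 2, and bars the mean ± SD. Il6, Il23a, Tnf and Lta do not overlap between the diets, while Il10, Il22, Il24, Il9, Ltb and Areg do.

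Il6 (ENSMUSG00000025746, chromosome 5, 30013114 to 30019981 of GRCm38, plus strand) encodes interleukin 6. It had 34.6, 31.2, 32.4, 34.9, 24, 26.5 and 24.7 CPM in deficient libraries 1 to 7, against 1.21, 2.73 and 3.87 CPM in control libraries 1 to 3. The groups did not overlap, and deficient libraries 5 to 7 were the lowest of their group. The log2 fold change, deficient minus control with batch in the model, was 3.39 (SE 0.249). It was 3.88 (SE 0.272) within batch 1 and 2.67 (SE 0.25) within batch 2, and 3.96 without deficient libraries 5 to 7. Without those deficient libraries, control library 3 is the only library of batch 2 and the batch term takes it up. Such log2 fold changes, here and below, thus compare deficient libraries 1 to 4 with control libraries 1 and 2 only. Il6 in control library 3, the only control of batch 2, was the highest of the controls. A fit within batch 2 holds only deficient libraries 6 and 7 and that control. Its SE, here and below, thus carries no spread among controls.

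The bases just before Il6 are shown because this gene had the most motif matches among the cytokine genes, and the map of motif matches gives the others. The sequence is RefSeq's for chr5:30012864-30013113 of GRCm38.p6, plus strand, 5′ to 3′, with matches in capitals.
Il6: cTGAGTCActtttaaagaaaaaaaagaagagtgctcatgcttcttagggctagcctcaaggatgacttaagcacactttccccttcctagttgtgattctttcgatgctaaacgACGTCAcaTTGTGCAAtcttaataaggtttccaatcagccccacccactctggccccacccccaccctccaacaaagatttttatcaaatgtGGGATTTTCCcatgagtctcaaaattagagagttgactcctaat
From the left, the capitals mark an AP-1 match, a cAMP response element (CRE) match, a C/EBP match and an NF-kB match. The motifs searched on both strands were GGG, any 2 bases and TTTCC for NF-kB, TGANTCA for AP-1, TGACGT for CRE, TTGCNNAA for C/EBP and TATAAA for the TATA box. In the 250 bases before the start, RefSeq windows of all genes held these in 1.41%, 6.75%, 6.47%, 9.56% and 12.4% of 32851 cases. Of the 10 cytokine genes, 7 had such a window: the NF-kB letters stood before Il6, Il9 and Ltb, the AP-1 letters before Il6 and Il9, the CRE letters before Il6 and Areg, the C/EBP letters before Il6, and the TATA box letters before Il22, Tnf, Lta and Areg. Exact repeats of AGGTCA or of GGTTCA with 3 bases between them, strict forms of the repeat bound by the vitamin D receptor, stood before 0 of the 7. Each stood before 2 of all 32851 windows. Forms this rare could hardly be met in 7 windows, so the 0 says nothing about looser or more distant sites. A match is a description of letters, and factor binding was not measured here.

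**Figure D2:**
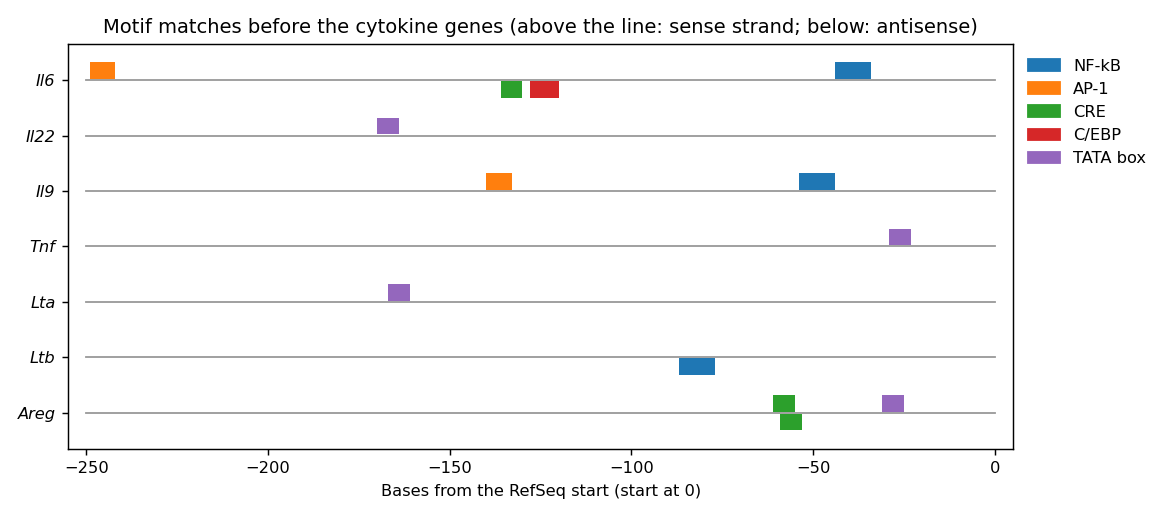
Motif matches in the 250 bases before the RefSeq start of 7 cytokine genes; the horizontal axis is the distance in bases from the start, boxes above a line lie on the sense strand and boxes below on the antisense strand. Il6 has 4 matches, and Tnf and Lta have a TATA box match each, beginning 29 bases before the start in Tnf and 167 in Lta.

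Il23a (ENSMUSG00000025383, chromosome 10, 128296139 to 128298752, minus strand) encodes p19, the subunit that pairs with p40 to form IL-23. Its level was 16.9, 23.2, 17.8, 22.3, 44.2, 48.9 and 51.3 CPM in deficient libraries 1 to 7, against 0.172, 0 and 0.155 CPM in control libraries 1 to 3. The gene was close to silent in all controls, and deficient libraries 5 to 7 were the highest. The controls held 2 counts in all, so the difference is given as a ratio of summed CPM, deficient over control, of 297 (95% counting interval 82.1 to 2454, which covers counting error only). Without deficient libraries 5 to 7 it was 188 (52 to 1556). Il12b, which encodes p40 and was named after its values were seen, had 5 counts over the 7 deficient libraries and 0 over the 3 control libraries. Il12a and Ebi3, subunits of related cytokines, did not pass the test between the diets (adjusted p = 0.491 and 0.504, edgeR). No library had more than 3 counts of Il12b.

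The summed markers of several other cell types, like Il6 and Il23a, did not overlap between the diets. Dendritic cell markers summed to 30.7 to 45.2 CPM in deficient libraries, against 10.9 to 15.9 CPM in control libraries. Batf3 (17.8 to 25.1 CPM in deficient and 4.65 to 7.7 CPM in control libraries) and Zbtb46 (10.4 to 16 CPM in deficient and 4.14 to 6.34 CPM in control libraries) made up most of that sum. The 5 other dendritic cell markers did not share the difference: Itgax and Flt3 overlapped between the diets, and Clec9a, Xcr1 and Siglech were below 1 CPM in every library. Of the macrophage and monocyte markers, which summed to 5.53 to 8.5 CPM in deficient and 15.9 to 18 CPM in control libraries, Cd68 alone gave 3.27 to 5.1 CPM in deficient and 13.2 to 14.7 CPM in control libraries. Adgre1 had 0.455 to 1.71 CPM in deficient and 0 to 0.481 CPM in control libraries, so these markers did not share a direction. Gamma delta T cell markers summed to 19.7 to 34.4 CPM in deficient libraries, against 3.97 to 4.49 CPM in control libraries. Natural killer cell markers summed to 22.6 to 63.8 CPM in deficient libraries, against 4.31 to 12.1 CPM in control libraries. Most of that sum in deficient libraries was Klrk1 (10.4 to 31.5 CPM, against 0.517 to 2.94 CPM in control libraries) and Klrd1 (8.04 to 18 CPM, against 0.345 to 1.39 CPM). Klra8 was low, with 0 CPM in control libraries. Ncr1, Klrb1c and Eomes overlapped between the diets, so the natural killer markers did not all share the difference. The part of these cells in the Il6 and Il23a levels was not tested.

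Among deficient libraries, Il23a and Il24 had the same split, with libraries 5 to 7 above libraries 1 to 4, while Il6, Tnf and Areg had the opposite split. No library of 5 to 7 overlapped libraries 1 to 4 for these 5 genes or for Il22. Of all 13699 genes tested, 27.7% likewise did not overlap, 14.3% with libraries 5 to 7 higher and the rest with them lower. These subsets were not labelled as groups, so they were not tested. Marker sums of B cells, CD8 T cells, natural killer cells, mast cells or basophils, and stroma or epithelium were higher in libraries 5 to 7 without overlap, and that of gamma delta T cells was lower. The natural killer markers summed to 22.6 to 27.7 CPM in libraries 1 to 4 and 53 to 63.8 CPM in 5 to 7, with Ncr1 overlapping. The mast cell and basophil markers summed to 22.9 to 34.4 CPM in 1 to 4 and 50.2 to 69.4 CPM in 5 to 7. Of these, Fcer1a, Cpa3 and Ms4a2 were higher in 5 to 7 without overlap, while Hdc, Mcpt8, Kit and Mcpt4 overlapped. The stroma and epithelium markers summed to 19.8 to 23.8 CPM in 1 to 4 and 30.6 to 32.9 CPM in 5 to 7. Pecam1 alone gave that split, at 15.5 to 19.2 CPM in 1 to 4 and 24.7 to 27.7 CPM in 5 to 7. Epcam overlapped, and Col1a1, Col1a2 and Krt8 were below 1 CPM in every library. The gamma delta T cell markers summed to 22.8 to 34.4 CPM in 1 to 4 and 19.7 to 22.2 CPM in 5 to 7, where Tcrg-C2 alone did not overlap. Control library 3 held B cell markers at 103 CPM, above deficient libraries 1 to 4, and had 0.155 CPM of Il23a. The part of other cell types in the Il23a and Il24 levels was not tested.

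**Figure D3:**
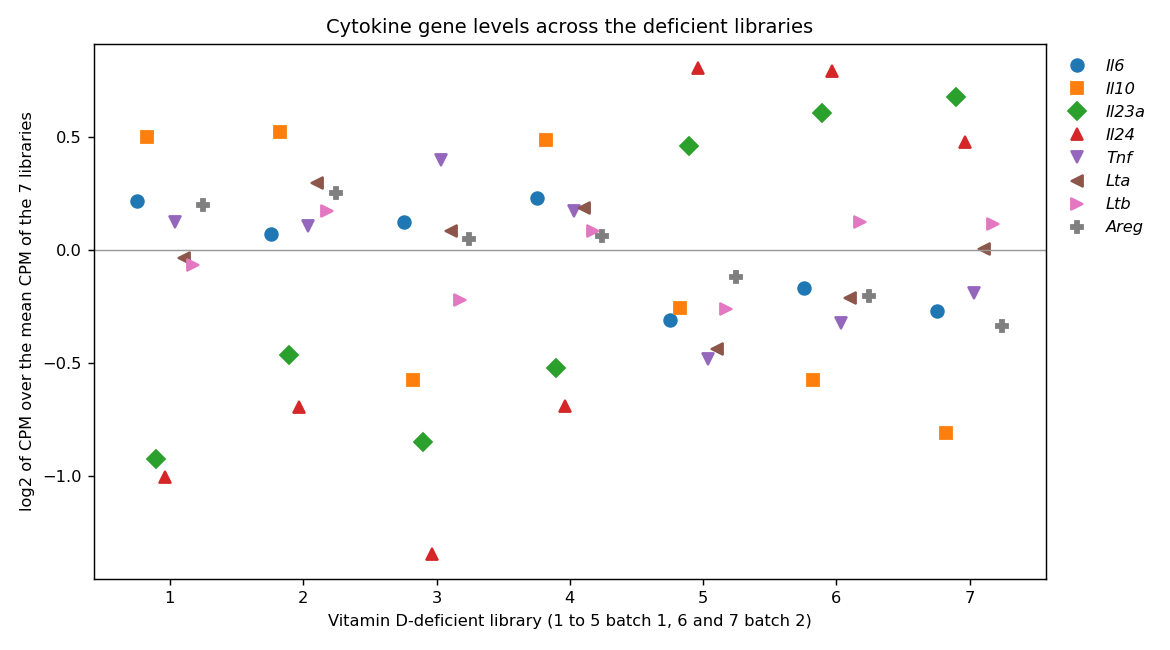
Level of 8 cytokine genes in each of the 7 deficient libraries, as log2 of the CPM over the gene's mean CPM in those libraries (vertical axis); Il9 and Il22 are left out for their low counts. Il23a and Il24 lie above 0 in libraries 5 to 7 and below 0 in 1 to 4, and Il6, Tnf and Areg the other way round.

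Il24 (ENSMUSG00000026420, chromosome 1, 130882074 to 130887454, minus strand) encodes interleukin 24. It had 71.9, 89.1, 56.6, 89.3, 252, 250 and 201 CPM in deficient libraries 1 to 7, against 66.5, 66.5 and 58.5 CPM in control libraries 1 to 3. Deficient library 3 lay below all controls, the other deficient libraries above, and libraries 5 to 7 above every other library. The log2 fold change was 1.02 (SE 0.546), with 0.66 (SE 0.694) within batch 1 and 1.89 (SE 0.124) within batch 2. It was 0.12 (SE 0.176) without deficient libraries 5 to 7, a fit in which control library 3 does not count towards it. The difference in the group mean thus rests mainly on deficient libraries 5 to 7. The fit within batch 2 compares 2 of these, libraries 6 and 7, with 1 control library. Il24 took 18.8% to 26.2% of the counts of the 10 genes in deficient libraries 1 to 4 and 46.7% to 56.2% in 5 to 7, against 40% to 42.1% in control libraries.

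Il10 (ENSMUSG00000016529, chromosome 1, 131019845 to 131024974, plus strand) lies 132390 bases from Il24, with Il19 and Il20 between them. It had 20.1, 20.4, 9.53, 19.9, 11.9, 9.53 and 8.09 CPM in deficient libraries 1 to 7, against 14.7, 10.9 and 13 CPM in control libraries 1 to 3. Deficient libraries 1, 2 and 4 lay above all controls and deficient libraries 3, 6 and 7 below them. The log2 fold change was -0.01 (SE 0.285), 0.08 with scaling by library totals, 0.40 without deficient libraries 5 to 7, 0.28 (SE 0.338) within batch 1 and -0.60 (SE 0.228) within batch 2. Per kilobase of exon, the ratio of Il10 to Il6 was 1.08, 1.21, 0.545, 1.06, 0.914, 0.666 and 0.606 in deficient libraries 1 to 7, against 22.5, 7.41 and 6.23 in control libraries 1 to 3. That of Il24 to Il10 was 3.38 to 5.61 in deficient libraries 1 to 4 and 20.1 to 24.8 in 5 to 7, against 4.25 to 5.77 in control libraries. The neighbours were nearly silent: Il19 had 4 counts in deficient and 10 in control libraries, and Il20 had 1 and 0, both genes being named after their values were seen.

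Il22 (ENSMUSG00000074695, chromosome 10, 118204942 to 118210047, plus strand), the third gene of the IL-10 family here, was too low to be fitted. It had 2, 0, 1, 1, 7, 7 and 6 counts in deficient libraries 1 to 7, against 1, 3 and 0 counts in control libraries 1 to 3. The ratio of summed CPM was 1.38, deficient over control, with a counting interval of 0.474 to 5.48, so a difference was not detectable at this depth.

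**Figure D4:**
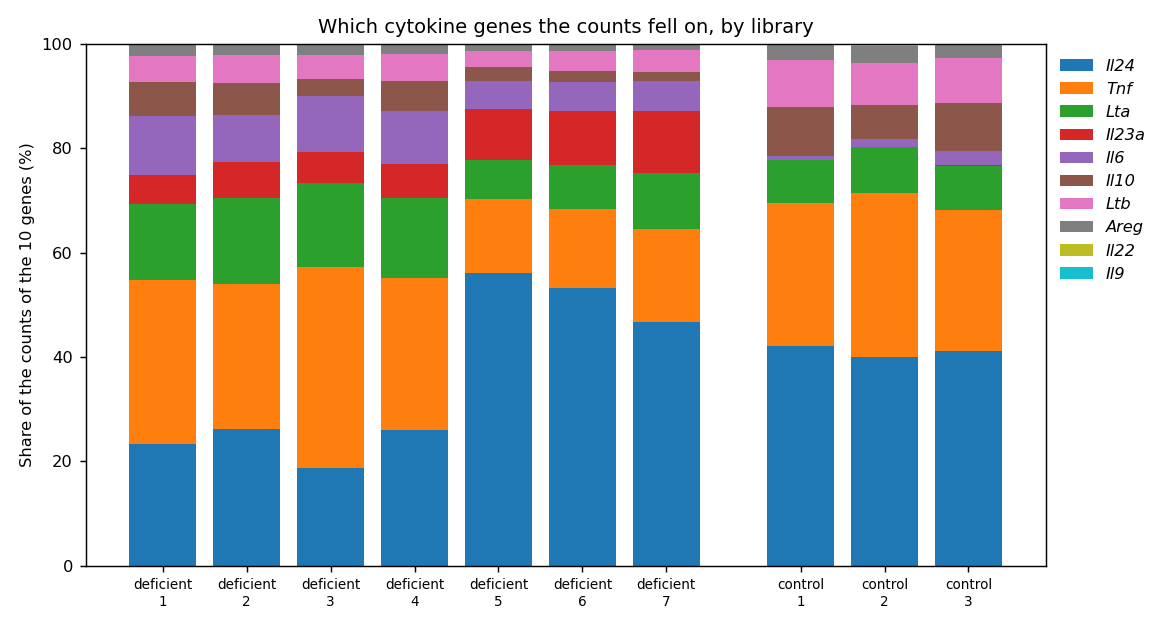
Share of the counts of the 10 genes that fell on each gene, in percent (vertical axis), for each deficient library (left) and control library (right). Il23a and Il6 are thin or absent in the controls, and Il24 takes 46.7% to 56.2% in deficient libraries 5 to 7.

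Tnf, Lta and Ltb stand side by side on chromosome 17. Tnf (ENSMUSG00000024401, 35199381 to 35202007, minus strand) encodes tumour necrosis factor and lies 1157 bases from Lta (ENSMUSG00000024402, 35203165 to 35205351, minus strand), which encodes lymphotoxin alpha. Ltb (ENSMUSG00000024399, 35194439 to 35196320, plus strand) lies 3060 bases from Tnf on its other side and encodes lymphotoxin beta, which anchors lymphotoxin alpha in the membrane. Their starts are shown because neighbouring genes with different diet differences are compared here; the sequences are RefSeq's for GRCm38.p6, 5′ to 3′ on the gene's strand, with motif matches in capitals. The windows are chr17:35202008-35202257 (minus) for Tnf, chr17:35205352-35205601 (minus) for Lta and chr17:35194257-35194438 (plus) for Ltb, which ends just before the annotated gene; that of Ltb holds 182 bases.
Tnf: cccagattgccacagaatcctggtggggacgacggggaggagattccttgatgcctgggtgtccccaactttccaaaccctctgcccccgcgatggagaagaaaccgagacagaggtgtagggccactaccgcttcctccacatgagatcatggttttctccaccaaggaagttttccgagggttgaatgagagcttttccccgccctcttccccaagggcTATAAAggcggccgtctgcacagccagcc
Lta: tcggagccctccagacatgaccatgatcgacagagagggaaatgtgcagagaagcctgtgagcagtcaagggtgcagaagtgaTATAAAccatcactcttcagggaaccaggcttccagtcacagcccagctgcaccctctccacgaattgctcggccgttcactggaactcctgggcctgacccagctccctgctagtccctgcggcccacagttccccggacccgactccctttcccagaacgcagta
Ltb: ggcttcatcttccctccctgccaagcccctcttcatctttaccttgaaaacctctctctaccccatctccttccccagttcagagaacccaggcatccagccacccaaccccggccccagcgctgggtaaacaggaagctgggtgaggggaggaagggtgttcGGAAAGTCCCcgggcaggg
The capitals mark TATA box letters in Tnf and Lta and NF-kB letters, read on the antisense strand, in Ltb. The TATA box letters begin 29 bases before the start in Tnf and 167 bases before it in Lta.

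Tnf had 96, 94.7, 116, 99.4, 63, 70.3 and 77.2 CPM in deficient libraries 1 to 7, against 43.3, 52.4 and 38.5 CPM in control libraries 1 to 3. Every deficient library lay above every control, with libraries 5 to 7 the lowest of their group. The log2 fold change was 0.87 (SE 0.165), and also 0.87 within each batch (SE 0.225 in batch 1, 0.125 in batch 2). Without deficient libraries 5 to 7 it was 0.99.

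Lta had 44.7, 56.2, 48.5, 52.1, 33.8, 39.5 and 45.9 CPM in deficient libraries 1 to 7, against 12.9, 14.4 and 12.1 CPM in control libraries 1 to 3. The groups lay far apart, with 33.8 CPM as the lowest deficient and 14.4 CPM as the highest control value. The log2 fold change was 1.71 (SE 0.156), 1.69 within batch 1 and 1.75 within batch 2.

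Ltb had 15.7, 18.5, 14.1, 17.4, 13.7, 17.9 and 17.8 CPM in deficient libraries 1 to 7, against 14.3, 13.3 and 12.4 CPM in control libraries 1 to 3. The groups overlapped in deficient libraries 3 and 5, and the log2 fold change was 0.22 (SE 0.13). Within this locus, then, the diet differences were unequal. Per kilobase of exon, Lta stood at 0.496 to 0.704 of Tnf in deficient libraries and 0.326 to 0.371 in control libraries. Ltb stood at 0.131 to 0.275 of Tnf in deficient and 0.274 to 0.358 in control libraries.

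Areg (ENSMUSG00000029378, chromosome 5, 91139599 to 91148432, plus strand) encodes amphiregulin, a ligand of the EGF receptor. It had 6.8, 7.05, 6.12, 6.18, 5.45, 5.14 and 4.69 CPM in deficient libraries 1 to 7, against 4.65, 5.29 and 3.71 CPM in control libraries 1 to 3. Deficient libraries 6 and 7 lay within the range of the controls. The log2 fold change was 0.28 (SE 0.169), and 0.05 (SE 0.209) with all libraries thinned to the depth of the shallowest.

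Il9 (ENSMUSG00000021538, chromosome 13, 56479277 to 56482246, minus strand) was barely detected: 0, 3, 1, 8, 2, 7 and 0 counts in deficient libraries 1 to 7, against 0, 1 and 0 counts in control libraries 1 to 3. A count of 0 allows up to 0.517 CPM in control library 1 and up to 0.464 CPM in control library 3. The ratio of summed CPM, deficient over control, was 4.83 with a counting interval of 0.777 to 200, so a difference was not detectable at this depth.

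Across the 10 genes, 8 passed the filter on low counts, and 4 of these (Il6, Il23a, Tnf and Lta) were past an adjusted p of 0.05 upward in the fit over all 13699 genes, against 29.4% of all genes tested. The groups did not overlap for the same 4 genes, all higher in the deficient libraries, where 29.4% of genes tested were likewise higher without overlap. Of the 8, 0 were past it downward, against 28.6% of all genes tested. These counts describe genes picked with this contrast in view.

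Batch was a contrast on which the genes were not picked. Of 13699 genes, 0 were called between batch 2 and batch 1 at an adjusted p of 0.05 (edgeR; 0% called, 1039 at an unadjusted p of 0.05, and 0 with DESeq2 or limma-voom). The batch differences of the cytokine genes, batch 2 minus batch 1, were largest for Il23a at 1.01 (SE 0.32), Il24 at 0.70 (SE 0.493) and Il10 at -0.62 (SE 0.287); Tnf stood at -0.34 (SE 0.157) and Areg at -0.38 (SE 0.161). The adjusted p was 0.629 for Il23a, Il10, Tnf and Areg and 0.702 for Il24. Without the filter on low counts, the Tnf difference of -0.34 passed (adjusted p = 0.0236, edgeR). Each library was also left out in turn. Without deficient library 5, 692 genes were called, and Il23a (1.32) and Tnf (-0.42) were past the threshold. That library carries the label of batch 1 but lay beside libraries 6 and 7 in Il23a and Il24 level, so leaving it out is not independent of the outcome, and these values are a description.

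The diet difference was then compared between the batches by the product term of diet and batch. It was called for 0 of 13699 genes (edgeR; 0% called, 565 at an unadjusted p of 0.05, and 0 with DESeq2 or limma-voom). The product term was -1.22 (SE 0.467) for Il6, 1.23 (SE 1.12) for Il24 and -0.89 (SE 0.559) for Il10, each at an adjusted p of 0.946 (edgeR). Tnf, Lta, Ltb and Areg had terms between 0 and 0.35. Without deficient library 5, with the same limit, it was 1.78 for Il24, past the threshold. In batch 2 the product term rests on deficient libraries 6 and 7 and 1 control library. The term thus cannot be fully told apart from the split of libraries 5 to 7 from 1 to 4.

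Receptors for these cytokines were measured from a list of 17 chains. Of 12 tested, 2 rose and 2 fell, with a median log2 fold change of 0.07, beside 58.0% called and a median of 0.02 over all genes tested. Egfr, the receptor of amphiregulin, rose to 29.3 ± 9.16 CPM in deficient cells, against 2.97 ± 0.214 CPM in control cells (log2 3.16, SE 0.34, adjusted p = 1.99e-05, edgeR). Its level was 34.1 to 39.6 CPM in deficient libraries 1 to 4 and 17.6 to 24.9 CPM in 5 to 7, the same split as that of Areg. Il12rb1, the chain shared by the IL-12 and IL-23 receptors, rose to 147 ± 13.8 CPM in deficient cells, against 81.9 ± 5.89 CPM in control cells (log2 0.76, adjusted p = 2.78e-06). Il6ra, the ligand-binding chain for IL-6, fell to 31.8 ± 5.57 CPM in deficient cells, against 56.5 ± 3.14 CPM in control cells (log2 -0.94, adjusted p = 5.69e-06). Tnfrsf1b, which encodes TNF receptor 2, fell to 12.8 ± 1.8 CPM in deficient cells, against 25.7 ± 2.88 CPM in control cells (log2 -1.10, adjusted p = 3.67e-06). Il10ra, at 0.23, and the common gamma chain gene Il2rg, at 0.10, did not pass, but did at 0.34 and 0.21 without the filter on low counts. The call of Il2rg changed under 2 alternatives in all.

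Some receptor chains were at or near 0. Il23r, which pairs with Il12rb1 to bind IL-23, had 22 counts over the deficient libraries and 3 over the controls. Il22ra1, a chain for IL-22, had 6 counts over the deficient libraries and 0 over the controls, and Il20ra, a chain of the IL-20 receptor family, had 4 and 5. Their partner chains were higher: Il20rb had 82 counts over the deficient libraries and 10 over the controls (log2 0.75, adjusted p = 0.165, edgeR), and Il10rb averaged 28.3 ± 1.94 CPM in deficient cells and 27.9 ± 2.25 CPM in control cells (log2 -0.06, adjusted p = 0.585). Il9r, the IL-9 receptor, did not differ by diet at the threshold (log2 0.04, adjusted p = 0.968) but varied widely. It had 36.2, 21, 18.5, 24.1, 2.48, 3.42 and 3.99 CPM in deficient libraries 1 to 7, against 8.96, 13 and 11.8 CPM in control libraries 1 to 3. Libraries 1 to 4 lay above all controls and 5 to 7 below them. These partner chains and Il9r were named after their values were seen.

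Among 27 tested transcription factors known to act on such genes, 7 rose and 4 fell, with a median of -0.01, beside 29.4% higher and 28.6% lower over all genes tested. Bhlhe40, which represses Il10 in helper T cells, rose to 330 ± 27.1 CPM in deficient cells, against 177 ± 11.3 CPM in control cells (log2 0.82, adjusted p = 5.81e-07, edgeR). Irf4, needed for several helper T cell programmes, rose by 0.34, Nfkb1 by 0.24 and Rora, a TH17 regulator, by 0.73. Ahr, the aryl hydrocarbon receptor, which drives Il22, fell by 1.29 on the log2 scale, Gata3 by 0.84, Stat5b by 0.45 and the NF-kB subunit gene Rel by 0.39. Junb at 0.07 (which passed at 0.18 without the filter on low counts) and Hif1a at -0.44 (adjusted p = 0.0644) did not pass. Rora lost its call within batch 1 (0.47), without deficient libraries 5 to 7 (0.34), without control library 2 (0.64) and without control library 3 (0.47). Nfkb1 lost its call within batch 2 (0.17). Hif1a passed under 3 alternatives, among them without deficient libraries 5 to 7 (-0.73) and without library 5 alone (-0.56).

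Of 17 tested genes that control cytokine mRNA decay and shedding, 4 rose and 7 fell, with a median of -0.10. Over all genes tested 58.0% were called, so the count of 11 is near the background. Zfp36, which encodes tristetraprolin, a protein that binds AU-rich elements and destabilizes Tnf mRNA, fell to 12.8 ± 1.7 CPM in deficient cells, against 29 ± 3.47 CPM in control cells (log2 -1.27, adjusted p = 3.6e-07, edgeR). Its relative Zfp36l2 fell to 27.2 ± 6.61 CPM in deficient cells, against 68.7 ± 3.25 CPM in control cells (log2 -1.45, adjusted p = 2.89e-05). On the log2 scale Zc3h12d, of the Regnase family, fell by 1.09 and Tial1 by 1.07. In contrast Rc3h1 and Rc3h2, which encode the Roquin proteins that also mark cytokine mRNAs for decay, rose by 0.55 and 0.56. Rhbdf2, which brings the sheddase ADAM17 to the cell surface, rose by 1.15, and Adam10, another sheddase gene, by 0.48. Arid5a at 0.01 and Tia1 at -0.10 did not pass, though Arid5a did within batch 2 (0.34). Adam10 lost its call within batch 2 (0.17), without control library 1 (0.43) and without control library 2 (0.41), and was 0.73 without deficient libraries 5 to 7.

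In the relay and feedback list, 5 of 25 tested genes rose and 10 fell, with a median of -0.11, again beside 29.4% higher and 28.6% lower over all genes. The kinases Jak1, Jak2 and Jak3, which carry the signals of IL-6, IL-9 and the IL-10 family, fell by 0.48, 0.75 and 0.87, while Tyk2 rose by 0.23 on the log2 scale (adjusted p = 2.16e-05, 2.02e-07, 1.01e-05 and 0.00766, edgeR). Nfkb2, the precursor of the NF-kB subunit used by the lymphotoxin beta receptor, rose to 280 ± 38.6 CPM in deficient cells, against 135 ± 11.1 CPM in control cells (log2 0.95, adjusted p = 4.54e-05). Birc3, an inhibitor of apoptosis gene in TNF receptor complexes, fell by 0.63. Tradd, the adaptor of TNF receptor 1, rose by 0.36 and Chuk, an NF-kB kinase gene, by 0.26. The feedback inhibitor gene Nfkbia at -0.11 and Cyld at 0.14 did not pass. Tradd lost its call without control library 1 (0.31), within batch 2 (0.31) and without deficient libraries 5 to 7 (0.40). Chuk lost it without control library 3 (0.21), within batch 1 (0.21) and without deficient libraries 5 to 7 (0.17), and Tyk2 without control library 1 (0.18) and within batch 2 (0.20). Cyld passed under 6 alternatives, up to 0.25 without the count filter, and Nfkbia passed within batch 2 (-0.33) and with sex as a term (-0.22).

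Other cytokine genes formed a list of 50 that are not among the 10. Of 33 tested, 14 rose and 5 fell, with a median of 0.27. The 19 called are near the 58.0% called over all genes, of which 29.4% were higher and 28.6% lower. Csf2, which encodes GM-CSF, rose by 4.46 (log2, SE 0.135), and Tnfsf4, the ligand of the co-stimulatory receptor OX40, to 40.6 ± 7.26 CPM in deficient cells, against 4.3 ± 1.19 CPM in control cells (log2 3.16, adjusted p = 1.49e-07, edgeR). Il3 rose by 1.22. Il1a, which encodes interleukin 1 alpha, had 2 counts in the controls, and its ratio of summed CPM, deficient over control, was 42.7 (counting interval 11.7 to 354). Tnfsf14, whose product LIGHT shares the lymphotoxin beta receptor, fell to 35.7 ± 3.57 CPM in deficient cells, against 93.5 ± 5.83 CPM in control cells (log2 -1.48, adjusted p = 1.06e-09). Il16 fell by 0.77, the EGF family gene Hbegf by 0.52 and Cd40lg by 0.50. Tnfsf8 at 0.27 and Mif at 0.05 did not pass. Hbegf lost its call within batch 1, without control library 3 and without deficient libraries 5 to 7 (-0.41 in each). Cd40lg lost it without each of control libraries 1 (-0.56) and 3 (-0.28) and deficient libraries 6 (-0.45) and 7 (-0.46), with scaling by library totals (-0.42), within batch 1 (-0.27) and without deficient libraries 5 to 7 (-0.21). Tnfsf8 passed under 5 alternatives, up to 0.56 without deficient libraries 5 to 7.

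**Figure D5:**
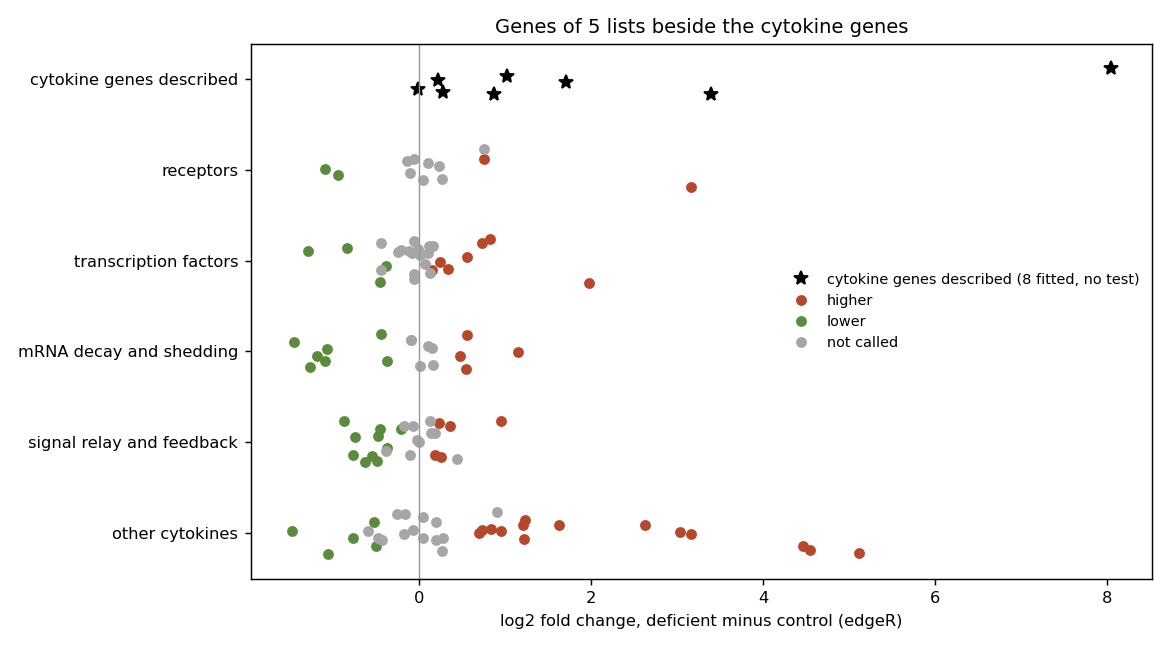
Log2 fold change, deficient minus control (horizontal axis), of the tested genes of 5 lists (points, coloured by the call of edgeR at an adjusted p of 0.05) and of the 8 fitted cytokine genes (stars, no test). The vertical position within a row carries no meaning; 14 of 33 other cytokines are called higher and 10 of 25 relay and feedback genes lower, and the star at 8.05 is Il23a, whose fitted value depends on the prior count.

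Lastly, the genes whose level was most like that of each cytokine gene were sought among 12539 genes across the 7 deficient libraries, by Pearson's r of log2(CPM + 0.5). The points share the split of libraries 5 to 7 from 1 to 4, so a high r can follow from that split alone, and r is given as a description. Il24 was most like Cd8a (0.998), Rhod and Wdr78 (0.997 each), and Il23a most like Ciita (0.998) and Snx29 (0.996). Il6 was most like Llgl1 (0.988), Tesk2 and Chpf, and Tnf most like Lrrc1, Cd5 (0.989 each) and Cnnm1. Il10 was most like Ptpn13 (0.987), Bpgm and B230217C12Rik, which are other genes than those of its neighbour Il24. Lta was most like Ddit3, Utp23 and Banf1, Areg most like Mrps28, Gpatch4 and Eif2ak4, and Ltb, with the lowest values, most like D7Bwg0826e (0.943), Gm22767 and Zfp963. Of all these genes 4.76% had an r above 0.9 with Il24, 4.59% with Il23a and 3.79% with Il6, against 0.104% with Ltb.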

How the data were processed

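Total RNA of TH2 cultures was made into libraries with a stranded total RNA kit of the globin type, per the labels' protocols. The authors deposited raw read counts per Ensembl gene. The submitters' processing notes name STAR 2.7.10a, HTSeq 0.13.5 and the build GRCm38. How strand was handled in counting is not given in the sources used here. No exon of another annotated gene overlaps those of the 10 genes.

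IDs were matched to GENCODE M21 (49412 of 49671, and the remainder held 0.0226% of counts). The test was edgeR 4.0.16 in R 4.3.3: filterByExpr at a minimum count of 10 (13699 genes kept), TMM scaling, and a robust quasi-likelihood fit of diet and batch over all 10 libraries. Adjusted p-values are Benjamini-Hochberg over all genes tested, with a threshold of 0.05. Log2 fold changes are deficient minus control. Each SE is the size of the estimate divided by the square root of its quasi-likelihood F statistic. It is thus derived from the test. CPM uses library totals, and exon length is the union of annotated exons. Counting intervals and the limit for a count of 0 (3 counts) cover counting error only, since reads are not independent molecules. The test was also run on simulated counts in which few genes changed and all genes had the same spread. In the data 58.0% of genes were called, so that run cannot give the rate of false calls here.

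The genes and lists were chosen with earlier results of these data known. Named are the 10 genes, up to 4 called genes per list and direction by smallest adjusted p, the 2 uncalled genes of highest level per list, and the 3 most alike genes per fitted cytokine gene among those of at least 1 CPM. For Il23a, 1 of these is not reported here. Alternatives were other scalings and filters, DESeq2 1.42.0, voom in limma 3.58.1, sex as a term, no batch term, each batch alone, thinned counts, and libraries left out. Sex was read from Xist at 100 CPM, which marked 2 deficient libraries as female (libraries 1 and 3, at 657 and 733 CPM). Xist was at most 0.345 CPM in the other libraries, among them all controls. Figures used matplotlib 3.10.9.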

Additional observations from a re-analysis of the deposited data

How the results depend on the processing

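No paired analysis was possible because replicate numbers were given in accession order and tie no deficient library to a control library. Without the filter on low counts, 183 genes were called between batches and 4 for the product of diet and batch, 4 receptor genes rose and 8 relay genes rose. Within batch 1, 4 transcription factor genes rose, 4 decay and shedding genes fell, 3 relay genes rose and 2 other cytokine genes fell. Without deficient libraries 5 to 7, control library 3 alone stands for batch 2, so the batch difference rests on it. The diet estimate then rests on deficient libraries 1 to 4 and control libraries 1 and 2, and 3 other cytokine genes fell. With each library left out in turn, batch calls ranged over 0 to 692 and product calls over 0 to 156, both highest without deficient library 5. Called transcription factor genes ranged over 7 to 11 (3 to 7 rising), both lowest without control library 2, and decay and shedding genes over 7 to 12 (4 to 7 falling), both also lowest without control library 2. Relay genes ranged over 9 to 15 (2 to 6 rising), both lowest without control library 1, and falling other cytokine genes over 2 to 7, lowest without control library 3 and at 3 without control library 1, deficient library 6 or deficient library 7. Without control library 3, 4 transcription factor genes rose. The cause of these shifts was not tested. The product term could not be fitted without control library 3, without deficient libraries 5 to 7, without a batch term or within a batch. Depth limits Il9 and Il22, and the control level of Il23a, to a few counts. With 3 controls, 1 of them in batch 2, the control spread rests on few libraries.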
